A study of Homo sapiens with 20 samples.

Results

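MDA-MB-468 breast cancer cells that had been given epidermal growth factor (EGF) for 12 h were compared with untreated control cells, and the programmes of genes that rose and fell at this earliest time point are described. The comparison was chosen as 4 EGF 12 h libraries against 4 control libraries, which makes 8 of the 20 libraries of the series, and all 16522 genes with enough counts entered it. MDA-MB-468 is a basal, triple negative breast cancer line with a high level of the EGF receptor. By the study's protocol, serum was withdrawn 24 h after seeding and EGF was given after another 24 h. How long the cells of each group had been without serum at harvest is not stated in the sources used here. The treated cells received EGF at 50 ng/mL for 12 h and the control cells received none, and both groups were seeded and harvested together. Each group had 4 biological replicates of 1 cell line. The other 12 libraries (EGF for 24, 48 or 72 h) shared the filter on low counts, the scaling and the estimate of spread. They therefore had a part in which genes were tested, and with the 8 libraries alone 14939 genes were. The comparison with 24 h is given last. RNA was sequenced as single-end reads after library preparation with the Lexogen Corall mRNA kit. Since bulk RNA was measured, fewer cells of a kind and less RNA per cell cannot be told apart, and RNA levels say nothing of protein.

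EGF binds its receptor EGFR, which forms dimers with itself or with the related receptors ERBB2 and ERBB3 and signals through RAS and the MAP kinases ERK1 and ERK2, through PI3K and AKT, and through STAT factors. Within minutes this pathway switches on immediate early genes such as FOS and EGR1, and their protein products then act on a later set of genes that includes the pathway's own inhibitors, secreted ligands, matrix proteases and cell surface adhesion receptors. In cells with very many EGF receptors, such as MDA-MB-468, EGF is known to slow proliferation and to change cell shape rather than to promote growth, and long EGF-treatment of this line is used as a model of epithelial-mesenchymal transition (EMT).

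The total estimated count per library was 18393007 to 22158289 in the control and 20442693 to 23455737 after 12 h, so depth was alike in both groups. The control libraries held counts for 21863 to 22729 genes and the EGF 12 h libraries for 20770 to 21167, without overlap. Mitochondrial genes held 9.03 to 12.6% of counts in the control and 7.69 to 11.3% after 12 h. All 12 markers of a basal breast cancer line (such as KRT5, KRT17, EPCAM and EGFR) were measured and all 12 were higher after 12 h with TMM normalization, EPCAM no longer so under the other scalings given below. Of 20 markers of fibroblasts, endothelial, immune and red cells, 4 were at 0 in every control library and 8 in every EGF 12 h library. Their summed level was 12.8 to 15.1 CPM in the control and 28.4 to 30.3 CPM after 12 h, and 11.7 to 14.3 against 12.0 to 14.3 CPM without CD68, of whose exon bases 81.7% overlap another gene on the same strand.

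Expression is given as CPM (counts per 1000000 counts of the library, with library sizes scaled by TMM normalization), either for each library in the order of replicates 1 to 4 or as mean ± SD over the 4 libraries of a group. Log2 fold changes are EGF 12 h over control ± SE, and p-values come from the quasi-likelihood test of edgeR, adjusted by Benjamini and Hochberg's method across the genes tested. "Rose" and "fell" are used for genes with an adjusted p under 0.05. For every gene named with values for each library, the 2 groups did not overlap unless stated otherwise. Of all 16522 genes tested, the 4 EGF 12 h libraries lay above every control library in 4854 and below every control library in 5190. A lack of overlap in itself therefore sets no gene apart.

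After 12 h, the transcriptome had moved broadly. Of 16522 genes tested, 11465 (69.4%) were called, with 5433 (32.9%) higher and 6032 (36.5%) lower. Beyond a 1.5-fold change, 7700 genes (46.6%) remained, 3352 (20.3%) higher and 4348 (26.3%) lower. The median log2 fold change of all genes tested was -0.05. The balance between rises and falls depended on the scaling of the libraries: 47.4% of the calls were higher with TMM, 37.2% with scaling by upper quartiles (4317 higher, 7299 lower) and 30.2% with scaling by library size only (3581 higher, 8275 lower). These scalings moved the median of all genes by -0.16 and -0.28, and all changes below are relative to the TMM scaling. A few abundant transcripts moved with the scaling, and their part in it was not tested: EGFR took a median of 0.371% of counts in the control and 1.03% after 12 h, and ACTB took 1.12% and 3.07%.

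**Figure D1:**
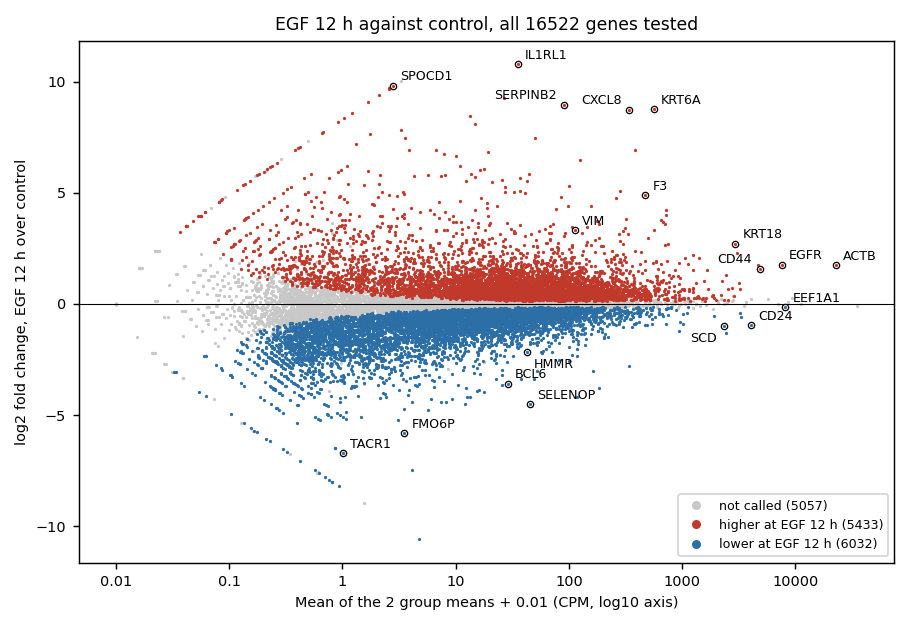
Log2 fold change of EGF 12 h over control for each of the 16522 genes tested (vertical axis) against its mean level in CPM on a log10 axis (horizontal axis). Red points are the 5433 genes called higher, blue points the 6032 called lower and grey points those not called; circled genes are named in the text. The slanted rows of points at the left edges are genes with few or no counts in 1 group, whose fold change is set by the prior count.

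For 39 lists of genes that belong to a pathway, complex or family, with 1490 genes in all, the members' changes were counted, and 1426 of these genes were tested. The median log2 fold change of the members was above 0 in 28 lists and below 0 in 11, and above 1 in 8 lists. These 8 were keratins with serpins and cornified envelope genes, ERBB ligands and receptors, plasminogen and matrix proteases, integrins and laminins, EGF feedback inhibitors, NF-kB with interleukin-1 and cytokines, AP-1 with immediate early genes, and the actin cytoskeleton. The median was below 1 for ERBB ligands and receptors with DESeq2 (0.72 over 12 genes), no filter (0.73) and a minimum of 10 counts in all libraries (0.66 over 8 genes), and for NF-kB and cytokines with that minimum and with factors per gene and library taken from the deposited normalized values. Of the 11 ERBB ligands and receptors tested, 6 rose and 5 fell, and the median of that list was the value of EGFR itself (1.76). The lowest medians were those of luminal lineage genes, mitosis, the circadian clock and zinc finger genes of chromosome 19. With 69.4% of all genes called, a high share of called members in itself sets no list apart; the direction and the size are what differ between lists.

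**Figure D2:**
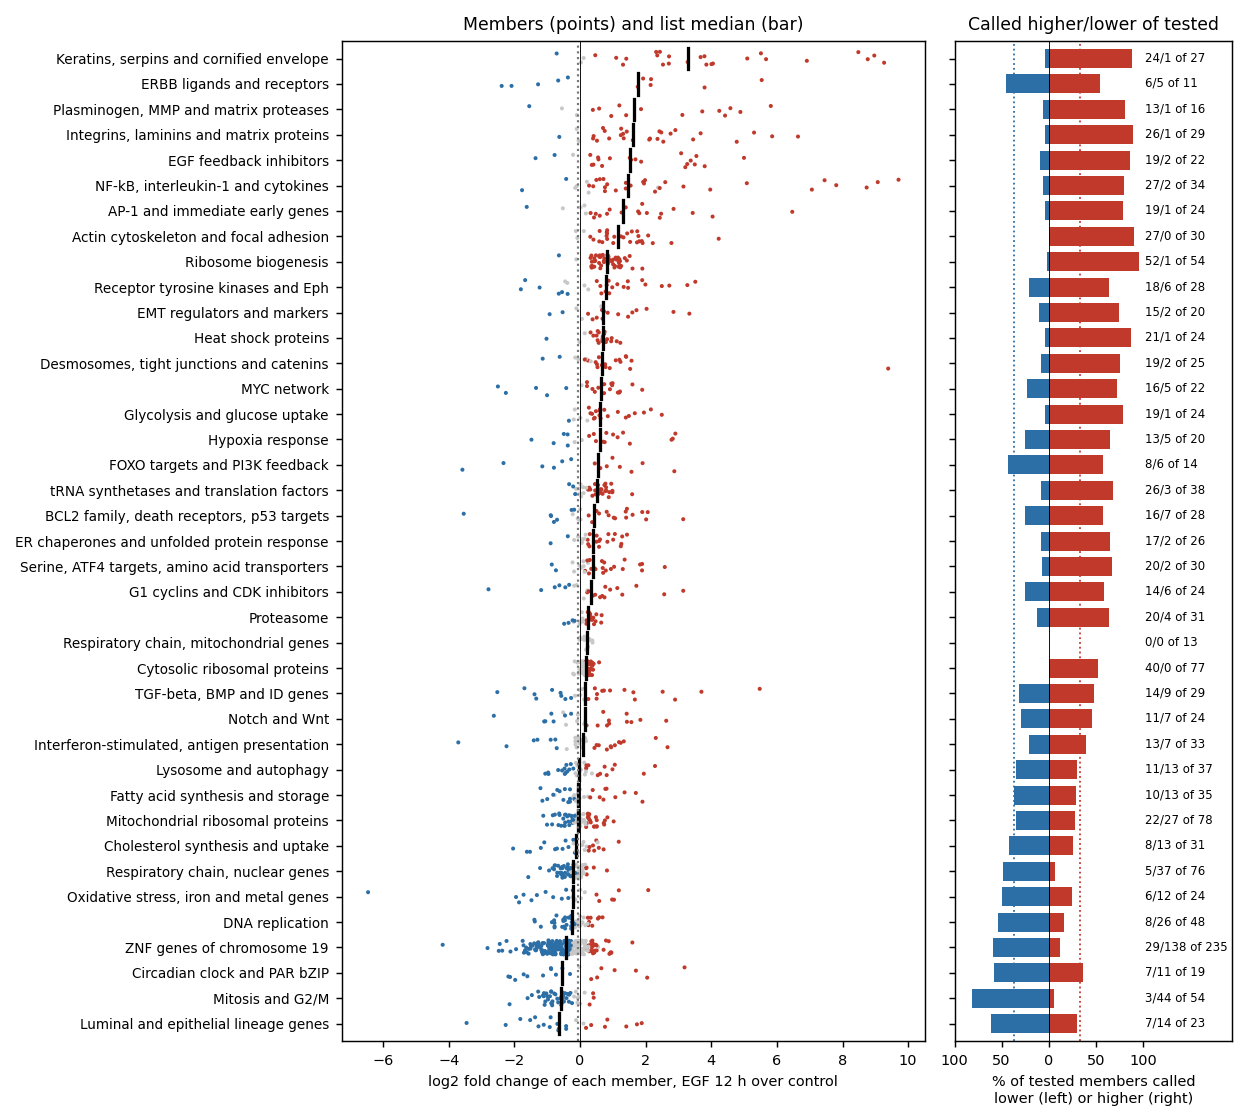
Left, the log2 fold change of each member of the 39 lists (points; red, called higher; blue, called lower; grey, not called) with the list's median (black bar) and the median of all genes tested (dotted line). Right, the percentage of tested members called higher (red) and lower (blue), with the share of all genes tested called higher (32.9%) and lower (36.5%) as dotted lines. Lists run from the keratin list at the top, with 24 of 27 higher and a median of 3.28, to the luminal lineage genes at the bottom, with 14 of 23 lower and a median of -0.65.

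The receptor for EGF had the second largest gain in CPM of all genes, after ACTB. EGFR, at chr7:55019021-55211628 (GENCODE 29, GRCh38), stood at 3357, 3534, 3421 and 3583 CPM in the control libraries and 11399.8, 12124, 11584 and 11899 CPM in the EGF 12 h libraries. It was higher in every treated library, 3.38-fold on average (log2 fold change 1.76 ± 0.068, adjusted p = 1.72e-16). The partner receptors moved the other way. ERBB2 fell from 21.5 ± 2.96 to 8.87 ± 1.07 CPM (log2 fold change -1.28) and ERBB3, the partner that recruits PI3K, from 62.2 ± 3.76 to 39.2 ± 1.99 CPM (log2 fold change -0.67). ERBB4 had no count in any of the 8 libraries. Of the 8 ligand genes measured, 5 rose and 3 fell. AREG, which encodes amphiregulin, stood at 1.56, 1.89, 1.84 and 1.87 CPM in the control libraries and 86.7, 78.3, 84.3 and 84.9 CPM in the EGF 12 h libraries. HBEGF, the heparin-binding ligand, stood at 1.96, 1.81, 1.96 and 1.68 CPM in the control libraries and 23.9, 27.7, 24.4 and 27.2 CPM in the EGF 12 h libraries. TGFA stood at 28.1, 31.5, 29.5 and 30.9 CPM in the control libraries and 127, 135, 137 and 139 CPM in the EGF 12 h libraries. None of these 3 ligands overlapped between the groups, and they rose 46.7-fold (AREG), 13.9-fold (HBEGF) and 4.48-fold (TGFA). EREG and EPGN, at lower levels, rose as well (log2 fold changes 2.15 and 1.92). EGF's own transcript fell from 5.13 ± 0.271 to 0.977 ± 0.223 CPM, and NRG2 and BTC fell (log2 fold changes -2.09 and -0.37), the groups overlapping for BTC, whose call (adjusted p = 0.027) was lost in 7 alternatives.

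Other receptor tyrosine kinases, listed with the ephrin ligands of the Eph receptors, changed in both directions. In this list 18 of 28 measured genes rose and 6 fell (median 0.796), and the counts were 18 and 8 with scaling by library size. Among its 6 ephrin genes, 3 rose and 2 fell. MET, the receptor for hepatocyte growth factor, stood at 78.6, 80.3, 78.8 and 79.3 CPM in the control libraries and 493, 529, 531 and 537 CPM in the EGF 12 h libraries, a rise of 6.59-fold (log2 fold change 2.72 ± 0.099, adjusted p = 5.66e-17). EPHA2, a receptor for ephrin A ligands, rose from 6.13 ± 1.05 to 59.1 ± 3.74 CPM and its relative EPHB6 from 8.18 ± 1.51 to 32.5 ± 3.25 CPM. The ephrin gene EFNB2 rose from 21.1 ± 3.02 to 119 ± 3.102 CPM. AXL rose from 0.398 ± 0.0875 to 4.605 ± 0.286 CPM (log2 fold change 3.51), while FGFR2, FGFR3 and NTRK2 fell (log2 fold changes -1.23, -1.67 and -1.81).

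Inhibitors that the EGF pathway induces against itself were high after 12 h. 19 of 22 measured genes rose and 2 fell, with a median log2 fold change of 1.53 against -0.05 for all genes. With scaling by library size, 14 rose and 3 fell. ERRFI1, which encodes the receptor inhibitor MIG6, stood at 74.3, 95.1, 91.7 and 89.97 CPM in the control libraries and 1199, 1209.7, 1215 and 1262 CPM in the EGF 12 h libraries (log2 fold change 3.798 ± 0.16, adjusted p = 3.76e-14). SOCS2, a suppressor of cytokine signaling, stood at 2.11, 2.35, 3.37 and 2.11 CPM in the control libraries and 79.6, 78.7, 81.3 and 81.01 CPM in the EGF 12 h libraries. SOCS3 stood at 3.21, 3.36, 2.99 and 2.88 CPM in the control libraries and 41.6, 32.03, 41.2 and 30.9 CPM in the EGF 12 h libraries. The 3 genes did not overlap between the groups, with rises of 13.9-fold, 32.2-fold and 11.7-fold. Among the Sprouty and SPRED genes, which act on the way from receptor to RAS, SPRY2 rose from 11.2 ± 1.04 to 126 ± 4.91 CPM and SPRY4 from 8.69 ± 1.11 to 73.5 ± 4.28 CPM, while SPRY1 had a log2 fold change of -0.21 (adjusted p = 0.0743), which passed the threshold in 4 alternatives. Of 9 MAP kinase phosphatases, which remove phosphate from ERK and related kinases, 8 rose and DUSP16 fell (log2 fold change -0.78). DUSP6, a phosphatase of ERK, stood at 4.77, 6.26, 5.21 and 5.19 CPM in the control libraries and 53.6, 56.9, 57.4 and 54.9 CPM in the EGF 12 h libraries, and DUSP5 and DUSP7 rose by 3.27 and 3.21 on the log2 scale. LRIG1, another inhibitor of EGFR, fell from 29.8 ± 1.58 to 11.6 ± 0.694 CPM (log2 fold change -1.36).

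Among the AP-1 and immediate early genes, 19 of 24 measured genes rose and 1 fell (median 1.301). AP-1 is a dimer of a Fos and a Jun protein. FOSL1, which encodes the Fos protein FRA1, stood at 2.31, 3.87, 2.35 and 2.595 CPM in the control libraries and 266, 266, 225 and 236 CPM in the EGF 12 h libraries. It rose 89.3-fold (log2 fold change 6.47 ± 0.25, adjusted p = 7.70e-14), the largest fold change among the 7 Fos and Jun genes. FOS stood at 3.57, 4.41, 2.902 and 2.79 CPM in the control libraries and 6.11, 5.39, 6.297 and 6.41 CPM in the EGF 12 h libraries, a rise of 1.77-fold. JUNB rose from 16.97 ± 5.51 to 57.9 ± 4.93 CPM, and JUN had a log2 fold change of 0.18 (adjusted p = 0.107; -0.11 with scaling by library size). EGR1 stood at 48.8, 73.4, 41.9 and 58.2 CPM in the control libraries and 85.2, 82.5, 82.2 and 87.1 CPM in the EGF 12 h libraries and rose 1.52-fold, EGR3 rose from 0.391 ± 0.193 to 6.61 ± 0.967 CPM, and ATF3 had a log2 fold change of 0.014 (adjusted p = 0.888; -0.27 and lower with scaling by library size). IER3 rose from 52.7 ± 3.505 to 569 ± 16.5 CPM, KLF6 from 68.8 ± 4.14 to 496 ± 13.5 CPM and MAFF from 3.22 ± 0.567 to 17.8 ± 2.09 CPM, each more than FOS, EGR1, JUN and ATF3 in log2 fold change.

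The list with the highest median was that of keratins, serpins and cornified envelope genes (median 3.28), in which 24 of 27 measured genes rose and 1 fell. Keratins form the intermediate filaments of epithelial cells. KRT6A and KRT6B are known from activated skin keratinocytes at a wound, clade B serpins inhibit proteases inside and around squamous cells, and SPRR proteins are cross-linked into the envelope of differentiating keratinocytes. KRT6A, at chr12:52487174-52493257, stood at 3.37, 2.14, 2.22 and 2.595 CPM in the control libraries and 1145, 1158, 1084 and 1084 CPM in the EGF 12 h libraries. KRT6B stood at 6.78, 6.01, 6.06 and 6.296 CPM in the control libraries and 758, 771, 730.1 and 766 CPM in the EGF 12 h libraries. The groups did not overlap, with rises of 433-fold and 120.3-fold, though KRT6A, KRT6B and KRT6C are nearly identical in sequence and the counting could split reads between them. KRT18, a keratin of simple epithelia, stood at 884, 817, 684 and 767 CPM in the control libraries and 5342, 5116, 4980.1 and 5107 CPM in the EGF 12 h libraries. KRT17 rose from 98.1 ± 7.49 to 1252 ± 88.4 CPM and KRT5 from 198 ± 20.7 to 1296 ± 48.8 CPM. KRT8, KRT7, KRT19, KRT14, KRT15 and KRT16 rose as well, by 1.10 to 2.43 on the log2 scale, so all 11 keratin genes tested in the list rose.

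All 7 clade B serpin genes tested rose, in a cluster of chromosome 18 except for SERPINB1 on chromosome 6. SERPINB2, at chr18:63871692-63903890, encodes plasminogen activator inhibitor 2 and stood at 0.251, 0.4204, 0.555 and 0.144 CPM in the control libraries and 179, 175, 178 and 185 CPM in the EGF 12 h libraries. SERPINB5, which encodes maspin, stood at 14.8, 16.1, 18.1 and 14.9 CPM in the control libraries and 539, 542, 544 and 568 CPM in the EGF 12 h libraries. SERPINB1 stood at 83.8, 84.8, 83.4 and 82.998 CPM in the control libraries and 1322, 1319.7, 1396 and 1342 CPM in the EGF 12 h libraries. All 3 were without overlap between the groups, with log2 fold changes of 8.97 ± 0.43, 5.096 ± 0.15 and 4.01 ± 0.082. SERPINB3 and SERPINB4, near-identical neighbours whose reads may be split between them, went from 0.0783 ± 0.0741 and 0.06505 ± 0.0543 CPM to 52.9 ± 8.0999 and 26.6 ± 3.56 CPM. Of the 9 cornified envelope genes tested, 6 rose and CNFN fell, with a median of 2.53. A gene near 0 in the control could enter the test only through the EGF libraries, and of the 3 for which factors per gene could be had (a minimum of 20 counts per library), 1 rose and 1 fell (median 0.19). The SPRR genes SPRR1B, SPRR2A, SPRR2D and SPRR3 rose by 3.79 to 5.51 on the log2 scale from control means of 0.13 to 0.736 CPM, while IVL and TGM1, which encode involucrin and the cross-linking transglutaminase, had log2 fold changes of 0.11 and 0.026 (adjusted p = 0.61 and 0.933). Genes of desmosomes, the junctions that anchor keratins, rose too: all 10 desmosomal genes were higher, and DSG3, without a count in any control library, stood at 4.14, 3.76, 4.53 and 4.21 CPM after 12 h, at least 122-fold above a floor of 3 counts over the control group.

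AP-1 is known to bind TGANTCA, and RefSeq promoters (250 bases before to 50 after a gene's start, GRCh38.p14) were searched for it on both strands. Of 15 keratin, serpin and cornified envelope genes with a RefSeq promoter, 7 held it (46.7%), and of 11 plasminogen and matrix protease genes 4 did (36.4%), against 5.03% of the promoters of all 11376 matched genes and 7.46% of the 2468 higher beyond 1.5-fold. The parts of 5 of these promoters around the motif are shown, since the genes are among those that rose most, with TGANTCA in capitals and the gene's strand read 5′ to 3′. A match describes the letters in this window and is not evidence of binding.

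SERPINB2 (chr18:63887573-63887639, plus strand): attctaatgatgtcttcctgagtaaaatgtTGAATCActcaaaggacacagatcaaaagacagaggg
SPRR1B (chr1:153031032-153031128, plus strand): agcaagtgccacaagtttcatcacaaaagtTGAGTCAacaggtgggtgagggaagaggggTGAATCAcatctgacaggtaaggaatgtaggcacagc
F3 (chr1:94541933-94542009, minus strand): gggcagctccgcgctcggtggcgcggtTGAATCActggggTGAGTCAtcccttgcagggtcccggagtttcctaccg
PLAUR (chr19:43670319-43670385, minus strand): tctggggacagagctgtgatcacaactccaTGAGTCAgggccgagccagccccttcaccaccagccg
TFPI2 (chr7:93890804-93890870, minus strand): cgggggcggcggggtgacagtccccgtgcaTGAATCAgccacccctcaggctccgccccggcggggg

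F3, PLAUR and TFPI2 belong to the system of plasminogen activation and coagulation, which dissolves and lays down provisional matrix around cells. In the list of this system with the matrix metalloproteinases, 13 of 16 measured genes rose and 1 fell (median 1.63). F3, at chr1:94529225-94541800, encodes tissue factor and stood at 29.2, 30.2, 31.97 and 32.2 CPM in the control libraries and 921, 854, 959.8 and 921 CPM in the EGF 12 h libraries. PLAUR, the receptor for urokinase, stood at 28.4, 25.2, 21.7 and 25.3 CPM in the control libraries and 341, 334, 326 and 328 CPM in the EGF 12 h libraries. TFPI2, an inhibitor of coagulation proteases and plasmin, stood at 1.36, 1.598, 1.41 and 1.59 CPM in the control libraries and 28.04, 25.005, 31.2 and 29.03 CPM in the EGF 12 h libraries. Every treated library exceeded every control library, with rises of 29.6-fold (F3), 13.2-fold (PLAUR) and 19.03-fold (TFPI2). The tissue activator PLAT rose from 0.277 ± 0.0848 to 15.7 ± 1.88 CPM, the inhibitor SERPINE2 from 2.08 ± 0.364 to 44.6 ± 3.02 CPM and urokinase (PLAU) from 9.09 ± 1.63 to 33.01 ± 0.523 CPM, so proteases and inhibitors rose together. Among metalloproteinases, MMP7 rose from 6.83 ± 0.636 to 18.1 ± 0.677 CPM, while MMP3, MMP10 and MMP13 had no count in the 8 libraries and MMP9 had at most 5 counts in a library. TIMP1 and TIMP2 rose (log2 fold changes 0.95 and 1.197) and TIMP3 fell (-1.55).

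Receptors and ligands of the matrix rose as a group: 26 of 29 measured genes rose and 1 fell (median 1.61), with 23 beyond 1.5-fold. ITGA2, the collagen-binding integrin chain, stood at 15.97, 21.2, 19.1 and 17.7 CPM in the control libraries and 471, 527, 514 and 519 CPM in the EGF 12 h libraries. LAMB3, which encodes a chain of laminin 332, the laminin of the epidermal basement membrane, stood at 1.26, 1.93, 1.11 and 1.68 CPM in the control libraries and 91.1, 90.8, 74.5 and 92.1 CPM in the EGF 12 h libraries. The groups were far apart for both, with log2 fold changes of 4.77 ± 0.19 and 5.85 ± 0.14. LAMA3, which encodes another chain of laminin 332, rose from 4.06 ± 0.5997 to 7.48 ± 0.987 CPM. Of 12 integrin chains, 10 rose, among them ITGA6 and ITGB4, which form the receptor for laminin 332 (log2 fold changes 2.11 and 2.13), and ITGA5, part of the fibronectin receptor (3.45). ITGB6 fell (-0.63) and ITGAV had a log2 fold change of -0.103 (adjusted p = 0.305). TGM2, a transglutaminase that cross-links matrix, rose from 0.1898 ± 0.0653 to 19.9 ± 1.59 CPM and LOX, a collagen cross-linking oxidase, from 4.67 ± 1.36 to 35.1 ± 2.03 CPM.

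Inside the cell, genes of the actin cytoskeleton rose as well. 27 of 30 measured genes rose and 0 fell (median 1.15). At an unadjusted p under 0.05 edgeR likewise gave 27 higher and 0 lower, as did DESeq2 at an adjusted p under 0.05. With scaling by library size 25 rose and 2 fell. ACTB, at chr7:5527147-5563784, encodes cytoplasmic beta-actin and had the largest gain in CPM of all genes tested. It stood at 10607, 11669, 9381 and 10319.6 CPM in the control libraries and 36967, 34398, 34889 and 34174 CPM in the EGF 12 h libraries. ACTG1, the gamma-actin gene, stood at 2085, 2632, 1860.1 and 2167 CPM in the control libraries and 7709, 7108, 7174 and 7109.7 CPM in the EGF 12 h libraries. The treated libraries were 3.35-fold and 3.33-fold above the control, on a scale set by all other genes, though the near-identical actin genes and their pseudogenes may share reads. The bundling protein gene FSCN1 (fascin, a protein of filopodia) rose from 0.592 ± 0.135 to 11.2 ± 0.529 CPM, and the focal adhesion gene ZYX from 35.6 ± 9.94 to 150.4 ± 13.99 CPM. All 7 focal adhesion genes tested rose. MYH10, RHOB and TAGLN2 were not called, with log2 fold changes of -0.13, -0.084 and 0.11. With scaling by library size MYH10 and RHOB passed the threshold as lower. GAPDH, often used as a reference, rose from 1898 ± 227 to 2539 ± 120.4 CPM (log2 fold change 0.42 ± 0.077, adjusted p = 4.02e-05), though its adjusted p was 0.123 with scaling by library size.

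**Figure D3:**
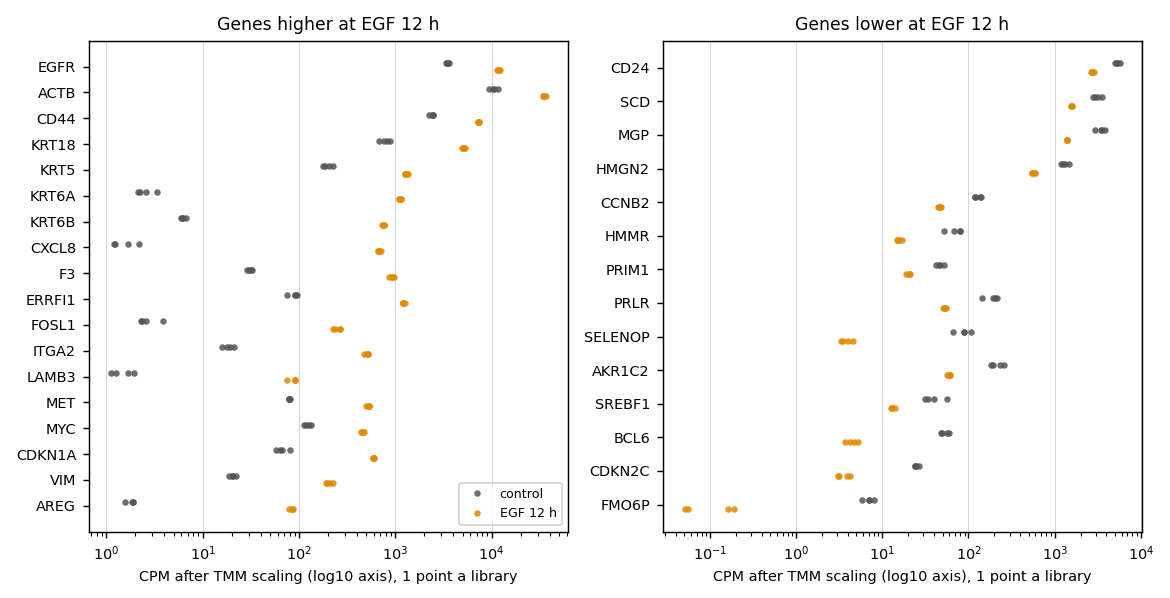
Expression in each of the 4 control libraries (grey) and 4 EGF 12 h libraries (orange) in CPM after TMM scaling, on log10 axes, for 18 genes that were higher (left) and 14 that were lower (right) at 12 h. In each of these genes the 2 groups do not overlap. The spread within a group differs between genes and is wide for FMO6P at EGF 12 h, where counts are few. The distance between groups is widest for KRT6A and CXCL8 on the left and for FMO6P and SELENOP on the right.

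Genes of secreted inflammatory signals rose from very low levels. In the list of NF-kB, interleukin-1 and cytokine genes, 27 of 34 measured genes rose and 2 fell, with a median of 1.47, or 1.403 with genes at 0 in the control taken at their lower bound. Over the 24 genes that reached 10 counts in all libraries the median was 0.89, and over the 22 for which factors per gene could be had it was 0.78. CXCL8, at chr4:73740506-73743716, encodes the neutrophil chemokine interleukin-8 and stood at 1.21, 1.22, 2.18 and 1.68 CPM in the control libraries and 654, 672, 664 and 710.3 CPM in the EGF 12 h libraries. CXCL1 stood at 0.502, 0.589, 0.683 and 0.481 CPM in the control libraries and 106, 98.2, 96.995 and 101 CPM in the EGF 12 h libraries. LIF, a cytokine of the interleukin-6 family, stood at 1.86, 2.65, 1.58 and 2.31 CPM in the control libraries and 80.2, 66.5, 69.2 and 69.9 CPM in the EGF 12 h libraries. These 3 rose 429.8-fold, 178-fold and 34.04-fold. CXCL8 and CXCL1 lie on chromosome 4, as do their neighbours CXCL2, CXCL3, AREG and EREG, which rose too. IL6 was too low to be tested, with at most 1 count in a control library and 5 to 9 in the EGF 12 h libraries. IL24 had no control count and reached 3.69, 2.45, 4.14 and 3.06 CPM, at least 97.6-fold higher. IL18 stood at 54.3, 49.2, 64.9 and 49.98 CPM in the control libraries and 325, 326, 342 and 328 CPM in the EGF 12 h libraries, a 6.05-fold rise from a level already measurable in the control. CCL28, a chemokine of mucosal epithelia, fell from 126 ± 6.62 to 36.998 ± 1.697 CPM (log2 fold change -1.77).

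The receptors of interleukin-1 and its relatives held the largest fitted log2 fold change of all genes tested. IL1RL1, the receptor for interleukin-33, is at chr2:102311502-102352037. It stood at 0.0502, 0, 0.0854 and 0 CPM in the control libraries and 70.5, 74.1, 72.2 and 65.9 CPM in the EGF 12 h libraries. Only 3 counts were found over the 4 control libraries, so the ratio of 2067 has a 95% counting interval of 707 to 10026. Its ligand gene IL33 was not tested, with at most 4 counts in a control and 2 in an EGF 12 h library. IL1R2, a decoy receptor, stood at 0 in the control and at 4.85, 5.39, 6.24 and 4.26 CPM after 12 h, at least 151-fold higher. Within NF-kB, the inhibitor TNFAIP3 rose from 4.9999 ± 0.239 to 44.4 ± 1.48 CPM, and RELB and NFKB2 rose by 1.98 and 1.92 on the log2 scale, whereas NFKBIA, the classical early target, had a log2 fold change of -0.0996 (adjusted p = 0.411), and passed the threshold as lower with scaling by library size or upper quartiles.

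Interferon-stimulated and antigen presentation genes did not move as a group. 13 of 33 measured genes rose and 7 fell, with a median of 0.077 that was -0.21 with scaling by library size (11 higher, 15 lower) and -0.09 by upper quartiles (11 and 11). ISG20 rose from 1.62 ± 0.285 to 10.3 ± 0.905 CPM and IRF1 from 15.3 ± 3.38 to 36.1 ± 4.48 CPM, while IFIT1 stood at 9.79, 7.23, 9.39 and 7.74 CPM in the control libraries and 0.758, 0.436, 0.497 and 0.861 CPM in the EGF 12 h libraries and fell (log2 fold change -3.71 ± 0.19, adjusted p = 1.93e-14). TAP2, a peptide transporter, rose from 29.1 ± 2.01 to 144 ± 4.83 CPM, and 32.3% of its exon bases overlap another gene on the same strand.

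Of the genes by which EMT is usually followed, regulators and mesenchymal markers rose, and so did most epithelial genes with TMM. 15 of 20 measured genes rose and 2 fell (median 0.69), and with scaling by library size 13 rose and 4 fell (median 0.41). VIM, which encodes the mesenchymal filament protein vimentin, stood at 20.5, 18.6, 22.1 and 19.99 CPM in the control libraries and 191, 224, 194 and 208 CPM in the EGF 12 h libraries. FN1, fibronectin, stood at 20.996, 16.2, 16.6 and 17.4 CPM in the control libraries and 57.1, 60.3, 55.9 and 60.9 CPM in the EGF 12 h libraries. EZR, which links actin to the membrane, stood at 104, 97.3, 98.1 and 97.99 CPM in the control libraries and 275, 278, 265 and 278 CPM in the EGF 12 h libraries. All 3 were separated from the control, 10.1-fold (VIM), 3.29-fold (FN1) and 2.76-fold (EZR) higher. SNAI1, a repressor of CDH1, stood at 1.56, 2.19, 1.07 and 1.11 CPM in the control libraries and 6.31, 5.67, 6.52 and 5.79 CPM in the EGF 12 h libraries. ZEB1 had 3 counts over the control libraries and 22 after 12 h, a ratio of 8.36 with a 95% counting interval of 2.51 to 43.6. SNAI2 and PRRX1 had no count. TWIST1 had at most 1 count in a control library and 3 to 8 counts after 12 h, and CDH2 had at most 2 and at most 4, so neither was tested.

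CDH1, which encodes E-cadherin, was not lower but higher: it stood at 112, 148, 117 and 133 CPM in the control libraries and 178, 185, 176 and 186 CPM in the EGF 12 h libraries (log2 fold change 0.51 ± 0.079, adjusted p = 4.76e-06). Its adjusted p was 0.0546 with factors per gene taken from the deposited normalized values. Of 11 epithelial genes, 7 rose and CLDN3 and GRHL2 fell, and with scaling by library size 5 rose and 4 fell. In the list of desmosomes, tight junctions and catenins, 19 of 25 measured genes rose and 2 fell (median 0.67), and with scaling by library size 17 rose and 4 fell (median 0.38). PKP2 and JUP, which bind desmosomal cadherins to keratin, rose from 69.7 ± 5.83 to 207 ± 3.81 CPM and 112 ± 28.1 to 295 ± 22.1 CPM. CLDN1 rose from 61.7 ± 9.92 to 145 ± 10.5 CPM, and TJP3 and CXADR fell (log2 fold changes -1.14 and -0.62). CD44, the hyaluronan receptor, stood at 2264, 2480.3, 2449 and 2434 CPM in the control libraries and 7189.8, 7344, 7146 and 7347 CPM in the EGF 12 h libraries. CD24, a surface protein often measured with CD44, stood at 5329, 5031, 5777 and 5270.4 CPM in the control libraries and 2752, 2624, 2899 and 2751 CPM in the EGF 12 h libraries, so CD44 rose 3.02-fold and CD24 fell 1.94-fold.

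Genes of the luminal mammary lineage fell. Of the 10 luminal genes tested, 9 fell and none rose, with a median of -1.19, and GATA3 had a log2 fold change of 0.104 (adjusted p = 0.159), and -0.18 with scaling by library size, where it was called lower. At an unadjusted p under 0.05 edgeR gave 0 higher and 9 lower. DESeq2 at an adjusted p under 0.05 gave 0 and 9 of 13, and no scaling gave a rise. PRLR, the prolactin receptor, stood at 143, 191, 213 and 203 CPM in the control libraries and 50.1, 53.8, 54.3 and 53.9 CPM in the EGF 12 h libraries. XBP1, a secretory cell factor, stood at 1391, 1346, 1302 and 1292 CPM in the control libraries and 712, 706, 728 and 715 CPM in the EGF 12 h libraries. KIT stood at 1.46, 1.26, 1.58 and 1.68 CPM in the control libraries and 0.0505, 0.109, 0.276 and 0.0956 CPM in the EGF 12 h libraries. They fell 3.54-fold, 1.86-fold and 11.3-fold, and FOXA1, the pioneer factor of luminal cells, fell from 183 ± 11.1 to 70.8 ± 2.92 CPM (log2 fold change -1.37). Among 13 basal and general epithelial factors, 7 rose and 5 fell, against 5 and 6 with scaling by library size. SOX9, KLF5 and KLF4 rose from 119 ± 13.8 to 437 ± 34.5 CPM, 135 ± 25.5 to 450.2 ± 12.2 CPM and 8.68 ± 0.657 to 23.1 ± 1.198 CPM. The keratins of luminal cells went against this pattern, since KRT7, KRT8, KRT18 and KRT19 all rose.

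Genes for building ribosomes rose almost as a whole. Ribosome biogenesis takes place in the nucleolus, where RNA polymerase I makes the ribosomal RNA precursor and many factors cut, modify and fold it. 52 of 54 measured genes rose and 1 fell, with a median of 0.83 and a range that reached only 1.898, so the changes were modest in size and alike in direction. With scaling by library size, 39 rose and 2 fell. DDX21, a nucleolar helicase, stood at 149, 129, 161 and 145 CPM in the control libraries and 397, 413, 435 and 418 CPM in the EGF 12 h libraries. BYSL, needed for the small subunit, stood at 14.1, 13.4, 11.4 and 11.9 CPM in the control libraries and 41.4, 36.99, 37.8 and 37.3 CPM in the EGF 12 h libraries. NPM1, the abundant nucleolar chaperone, stood at 2470.5, 2268, 2788 and 2433 CPM in the control libraries and 3937, 3801, 4352 and 4009 CPM in the EGF 12 h libraries. None overlapped, and they rose 2.85-fold, 3.03-fold and 1.62-fold. All 8 proteins of the box C/D and H/ACA particles rose and 34 of 35 processing factors did, with DIMT1 not called (log2 fold change -0.12, and lower with scaling by library size or upper quartiles). UBTF, a polymerase I factor, fell (log2 fold change -0.64).

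MYC, the transcription factor best known to drive this programme, stood at 132, 117, 128 and 113 CPM in the control libraries and 447, 438, 472 and 463 CPM in the EGF 12 h libraries and rose 3.71-fold (log2 fold change 1.89 ± 0.103, adjusted p = 8.66e-14). Among its network, 16 of 22 measured genes rose and 5 fell, and with scaling by library size 12 rose and 6 fell. Its partner MAX rose (log2 fold change 0.91) and the antagonist MXD1 rose from 50.8 ± 3.43 to 154 ± 5.34 CPM, while the antagonists MXD3 and MXD4 fell (-2.51 and -1.01). MYC and MAX bind CACGTG, an E-box. Of 45 ribosome biogenesis genes with a RefSeq promoter, 15 held CACGTG within the 300 bases (33.3%). The share was 9.70% of all promoters matched and 10.6% of the 2468 of genes higher beyond 1.5-fold. A match is not evidence of binding, and the part of MYC in the rises was not tested. The stretches just before the start of UTP20 and UTP4 are shown as examples (RefSeq, GRCh38.p14), with CACGTG in capitals.

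UTP20 (chr12:101280065-101280104, plus strand): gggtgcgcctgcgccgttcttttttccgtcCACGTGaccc
UTP4 (chr16:69132603-69132648, plus strand): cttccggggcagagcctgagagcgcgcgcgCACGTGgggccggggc

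These 2 genes encode subunits of the small subunit processome and rose by 1.42 and 0.85 on the log2 scale. The proteins of the mature ribosome changed far less: of 77 cytosolic ribosomal protein genes tested, 40 rose and none fell with TMM, with a median of 0.17, but 1 rose and 24 fell with scaling by library size (median -0.11), and 8 rose and 9 fell by upper quartiles. At an unadjusted p under 0.05 edgeR gave 48 higher and 1 lower. DESeq2 at an adjusted p under 0.05 gave 54 higher and 0 lower of 79. The largest rise in this list was 0.58 and the deepest value -0.21 on the log2 scale.

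Translation factors and chaperones rose in the same moderate way. All 12 initiation factors tested rose (9 with scaling by library size), with EIF4A1 from 489 ± 28.2 to 944 ± 14.6 CPM and EIF5A from 87.8 ± 2.46 to 174 ± 5.95 CPM. Of 20 cytosolic tRNA synthetases, 12 rose and 2 fell (10 and 8 with scaling by library size). WARS1 rose most, from 135 ± 4.56 to 405 ± 22.5 CPM. EEF1A1, an elongation factor with processed pseudogenes that may share its reads, stood at 9969, 7803, 8385 and 8108 CPM in the control libraries and 7691, 7556, 7921 and 7731 CPM in the EGF 12 h libraries. Its groups overlapped, and its fall (log2 fold change -0.15, adjusted p = 0.0271) was lost in 9 of the alternatives, among them DESeq2's test and the 8 libraries alone. Of 24 heat shock protein genes, 21 rose (median 0.69). All 8 subunits of the CCT chaperonin, which folds actin and tubulin, rose within a narrow range of 0.50 to 0.79 on the log2 scale, also with scaling by library size. HSPA8 rose from 2166 ± 103 to 4180.1 ± 48.7 CPM and HSP90AB1 from 908 ± 81.6 to 1770.04 ± 35.6 CPM. In the endoplasmic reticulum, 17 of 26 measured genes rose and 2 fell (median 0.396, or 12 and 5 with scaling by library size). The chaperones HSPA5, which encodes BiP, and MANF rose from 215 ± 13.1 to 524 ± 24.97 CPM and 44.8 ± 3.75 to 107 ± 2.16 CPM, while XBP1, a factor of the unfolded protein response, fell as described.

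Proteasome genes moved little, with 20 of 31 higher and 4 lower, a median of 0.25, and 4 higher and 10 lower with scaling by library size. PSMC4 and PSMD11 rose (log2 fold changes 0.66 and 0.64) and PSMD4 fell (-0.49). Of lysosome and autophagy genes, 11 of 37 were higher and 13 lower with TMM, and their median of -0.026 changed sign in 3 alternatives, while with scaling by library size 8 rose and 20 fell (median -0.31), and by upper quartiles 8 rose and 17 fell (median -0.19). CTSB, a lysosomal protease that is also secreted, stood at 76.3, 65.7, 64.9 and 71.4 CPM in the control libraries and 338, 339.9, 335 and 342 CPM in the EGF 12 h libraries and rose 4.87-fold. Of 21 hydrolase genes, 4 rose and 9 fell.

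Genes along the whole of glycolysis rose. 19 of 24 measured genes rose and 1 fell (median 0.597, or 0.31 with scaling by library size), and 15 of the 16 enzymes of glycolysis tested rose (12 with scaling by library size). PFKP, a phosphofructokinase, stood at 36.2, 27.5, 28.7 and 29.03 CPM in the control libraries and 176, 174, 171 and 161 CPM in the EGF 12 h libraries. PFKFB3, which makes its activator fructose 2,6-bisphosphate, stood at 7.28, 8.66, 7.73 and 7.59 CPM in the control libraries and 36.8, 33.8, 37.9 and 31.2 CPM in the EGF 12 h libraries. HK2 stood at 20.9, 20.3, 20.9 and 21.2 CPM in the control libraries and 55.5, 58.999, 59.05 and 60.1 CPM in the EGF 12 h libraries. The groups did not overlap, and the rises were 5.61-fold, 4.47-fold and 2.804-fold. LDHA, which makes lactate, rose from 595 ± 22.2 to 1322 ± 59.5 CPM and SLC16A1, which exports it, from 21.5 ± 2.42 to 82.9 ± 2.38 CPM. The pentose phosphate branch did not follow, with 1 of 5 higher and 1 lower (0 and 3 with scaling by library size). Hypoxia response genes, several of which are also targets of growth factor signals, rose in 13 of 20 cases and fell in 5 (9 and 7 with scaling by library size). NDRG1 rose from 6.404 ± 1.22 to 45.6 ± 6.603 CPM and ADM, adrenomedullin, from 2.25 ± 0.406 to 15.6 ± 2.19 CPM. The regulators split: HIF1A rose (log2 fold change 1.01), whereas EGLN1 and VHL, which limit it, fell (-0.81 and -0.38), VHL not with factors per gene.

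Genes of amino acid transporters rose: 9 of 10 tested were higher (7 higher and 1 lower with scaling by library size). SLC38A2, a carrier of small neutral amino acids, stood at 177, 241, 302 and 279.99 CPM in the control libraries and 875, 953, 898 and 976 CPM in the EGF 12 h libraries. SLC6A14 stood at 29.4, 26.8, 35.1 and 29.9 CPM in the control libraries and 174, 178, 183 and 191 CPM in the EGF 12 h libraries. They rose 3.703-fold and 5.99-fold. The serine and one-carbon enzymes were mixed, with 7 of 12 higher and 2 lower (3 and 4 with scaling by library size). MTHFD1L rose (log2 fold change 1.36) and PSPH and SHMT1 fell (-0.86 and -0.74). ATF4, the factor that controls many of these genes, rose from 884 ± 96.6 to 1427 ± 35.4 CPM. Its targets CHAC1, DDIT4 and SESN2 rose (log2 fold changes 1.89, 1.83 and 1.302), and DDIT3, TRIB3, ATF5 and ASNS were not called, with log2 fold changes of 0.24, -0.019, 0.098 and 0.11, and all 4 were below 0 with scaling by library size. Of 25 promoters of this list, 1 (MTHFD1L) held a binding motif of ATF4 (4%), against 0.501% of all. With 1 match the shares cannot be compared, and a match is not evidence of binding.

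Nuclear genes of the respiratory chain fell in part. Of 76 nuclear genes, 37 fell and 5 rose (median -0.22), and 12 of the falls passed 1.5-fold. The count depended on the scaling: with scaling by library size 1 rose and 68 fell (median -0.503), and by upper quartiles 1 rose and 55 fell (median -0.38). Complex I held 20 of the falls among its 38 genes. NDUFA5, a complex I subunit, stood at 44.1, 25.1, 52.4 and 38.5 CPM in the control libraries and 13.3, 12.6, 13.04 and 14.5 CPM in the EGF 12 h libraries. NDUFB5 stood at 70.7, 48.2, 75.5 and 59.3 CPM in the control libraries and 25.7, 24.1, 29.8 and 29.4 CPM in the EGF 12 h libraries. Both groups were apart, but the fall of NDUFB5 had an adjusted p of 0.0749 with factors per gene. None of the 13 genes of the mitochondrial genome was called by edgeR, none passed an unadjusted p of 0.05 and DESeq2 called 0, with a median of 0.22 that was -0.06 with scaling by library size. Among mitochondrial ribosomal protein genes, 22 of 78 were higher and 27 lower with TMM, 23 higher and 18 lower with no filter, and 25 and 20 without control replicate 1, while with scaling by library size 8 rose and 49 fell (median -0.36), and by upper quartiles 13 rose and 41 fell (median -0.23). MRPS33 fell from 88.1 ± 11.2 to 40.5 ± 2.92 CPM and MRPS2 rose from 57.9 ± 12.3 to 118 ± 2.83 CPM.

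Lipid genes changed in both directions with TMM and more of them fell under 2 other scalings. In cholesterol synthesis and uptake, 8 of 31 measured genes rose and 13 fell, while with scaling by library size 4 rose and 20 fell (median -0.42), and by upper quartiles 6 rose and 18 fell (median -0.29). With TMM, 4 of 19 synthesis genes rose and 8 fell (median -0.13), with 2 of the falls beyond 1.5-fold. Of 5 genes of uptake and its regulators, 3 rose and 0 fell. Of 7 export genes and LXR targets, 1 rose and 5 fell (median -1.197), and the 2 genes given next belong to these. SREBF1, a factor that controls lipid synthesis genes, stood at 33.6, 57.1, 31.3 and 39.6 CPM in the control libraries and 13.03, 13.9, 12.5 and 13.01 CPM in the EGF 12 h libraries and MYLIP, a ubiquitin ligase gene, at 19.3, 15.9, 16.01 and 15.4 CPM in the control libraries and 4.19, 3.98, 3.701 and 4.26 CPM in the EGF 12 h libraries. Both fell, 3.07-fold and 4.13-fold. In fatty acid synthesis and storage, 10 of 35 measured genes rose and 13 fell, against 10 and 9 with factors per gene, 8 and 22 with scaling by library size, and 8 and 20 by upper quartiles. SCD, which introduces the first double bond into fatty acids, stood at 2792, 3588, 2951 and 3194 CPM in the control libraries and 1531, 1584, 1539.7 and 1602 CPM in the EGF 12 h libraries and fell 2.002-fold, among the 8 largest losses in CPM of all genes. FADS3 and PLIN3 rose from 6.604 ± 1.51 to 24.7 ± 1.61 CPM and 31.95 ± 2.86 to 104 ± 3.89 CPM.

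Among genes of oxidative stress, iron and metals, 6 of 24 rose and 12 fell (5 and 16 with scaling by library size, 8 and 9 of 22 with factors per gene). Of 14 targets of the antioxidant factor NRF2, 8 fell and 1 rose (6 and 3 of 13 with factors per gene), and of 4 metallothioneins 3 rose. AKR1C2, a reductase of steroids and aldehydes, stood at 257, 184, 229.6 and 195.2 CPM in the control libraries and 61.02, 60.1, 61.4 and 55.999 CPM in the EGF 12 h libraries. NQO1 stood at 408, 472, 349.8 and 377 CPM in the control libraries and 201, 189.6, 196 and 190.2 CPM in the EGF 12 h libraries. PIR stood at 30.9, 27.03, 31.9 and 29.4 CPM in the control libraries and 8.69, 8.498, 9.94 and 8.99 CPM in the EGF 12 h libraries. The treated libraries lay below the control for all 3, 3.63-fold (AKR1C2), 2.07-fold (NQO1) and 3.301-fold (PIR), while AKR1C1, AKR1C2 and AKR1C3 are close relatives that may share reads. MT2A, a metallothionein that binds zinc, stood at 495, 648, 453 and 548 CPM in the control libraries and 2486, 2293, 2186 and 2085 CPM in the EGF 12 h libraries, a rise of 4.22-fold. For iron, the ferritin genes FTH1 and FTL fell (log2 fold changes -0.42 and -0.36), TFRC, the transferrin receptor, rose (0.98), and the exporter SLC40A1 went from 1.51, 1.51, 1.71 and 2.02 CPM to 0, 0, 0.0552 and 0 CPM, with 1 count over the 4 treated libraries and a ratio of control to EGF 12 h of 129.9 (95% counting interval 22.95 to 5165). For FTH1, 62.4% of exon bases overlap a gene on the other strand.

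Genes of mitosis had the highest share of members lower among the 39 lists. 3 of 54 measured genes rose and 44 fell (median -0.57), and with scaling by library size or by upper quartiles 49 fell and none rose. All 11 kinetochore and condensin genes and 15 of 16 kinesin and spindle genes fell. HMMR, a spindle protein, stood at 78.7, 51.97, 79.5 and 67.3 CPM in the control libraries and 14.9, 15.5, 16.9 and 15.3 CPM in the EGF 12 h libraries. KIF20A, a kinesin of cell division, stood at 119, 117, 108 and 107 CPM in the control libraries and 34.8, 39.9, 36.7 and 37.3 CPM in the EGF 12 h libraries. CCNB2, cyclin B2, stood at 139, 120.1, 135 and 118 CPM in the control libraries and 44.3, 47.3, 45.1 and 48.3 CPM in the EGF 12 h libraries. The groups did not overlap, with falls of 4.44-fold, 3.03-fold and 2.77-fold. MKI67 stood at 224, 306, 270.1 and 305 CPM in the control libraries and 238, 267, 242 and 265 CPM in the EGF 12 h libraries. Its groups overlapped and it was not called (log2 fold change -0.13 ± 0.099, adjusted p = 0.25), but it passed the threshold when scaled by library size (-0.41, adjusted p = 0.000783) or upper quartiles (-0.29, adjusted p = 0.0184), and without control replicate 1 (-0.21, adjusted p = 0.0499). UBE2C, CCNF and FZR1 rose with TMM by 0.29 to 0.41 on the log2 scale and none of them was called higher when scaled by library size or upper quartiles.

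Many mitotic genes are held in check by the DREAM complex, which is known to bind the CHR element TTTGAA near CCAAT boxes. Of 48 promoters of this list matched in RefSeq, 26 held both TTTGAA and CCAAT on either strand (54.2%), against 4.30% of all promoters, and 34 held TTTGAA (70.8% against 10.1%). Of the promoters of all genes lower beyond 1.5-fold, 6.24% held both. CCNF, which rose with TMM (log2 fold change 0.41), held both as well. A match is not evidence of binding, and the part of DREAM in the falls was not tested. KIF11 and KIF18A, which fell by 1.25 and 1.03 on the log2 scale, are shown with both elements in capitals, on the other strand as TTCAAA and ATTGG.

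KIF11 (chr10:92593047-92593129, plus strand): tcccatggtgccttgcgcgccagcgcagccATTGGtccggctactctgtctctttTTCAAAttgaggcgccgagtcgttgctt
KIF18A (chr11:28108157-28108231, minus strand): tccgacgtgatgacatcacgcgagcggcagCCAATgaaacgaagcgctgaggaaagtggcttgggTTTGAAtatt

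DNA replication genes fell in part: 26 of 48 fell and 8 rose (median -0.24), while with scaling by library size 3 rose and 37 fell (median -0.52), and by upper quartiles 4 rose and 34 fell (median -0.40). All 6 nucleotide synthesis genes fell. PRIM1, a primase subunit, stood at 42.5, 46.2, 51.3 and 45.9 CPM in the control libraries and 21.1, 18.96, 20.7 and 20.5 CPM in the EGF 12 h libraries. Its groups did not overlap, and it fell 2.29-fold. The MCM helicase and the loading factors were mixed. Of 7 MCM genes 3 were higher and 1 lower, and of 10 origin and loading genes 3 were higher and 3 lower. Of 14 genes of polymerases and the clamp, 2 were higher and 9 lower. Single genes that were higher include CDT1, CDC6 and FEN1 (log2 fold changes 0.68, 0.24 and 0.58). With scaling by library size 1 MCM gene was higher and 4 were lower, and CDC6 was at -0.046 and not called.

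The genes that decide entry into the cycle moved in both directions. 14 of 24 measured genes rose and 6 fell, and with scaling by library size 9 rose and 8 fell. CCND1, cyclin D1, stood at 79.2, 80.8, 77.98 and 79.7 CPM in the control libraries and 256, 271, 249.8 and 267 CPM in the EGF 12 h libraries. CDK6, its kinase, stood at 13.01, 15.7, 16.01 and 15.1 CPM in the control libraries and 78.4, 93.8, 89.04 and 93.7 CPM in the EGF 12 h libraries. CDKN1A, which encodes the inhibitor p21, stood at 66.3, 80.3, 57.7 and 63.9 CPM in the control libraries and 598, 591, 581 and 600.01 CPM in the EGF 12 h libraries. These 3 rose 3.28-fold, 5.93-fold and 8.84-fold, so cyclin, kinase and inhibitor were raised together. CDKN2C, which encodes the inhibitor p18, stood at 26.8, 24.7, 23.9 and 23.8 CPM in the control libraries and 3.08, 3.16, 4.198 and 3.87 CPM in the EGF 12 h libraries and fell 6.94-fold, and CDKN2B fell too (log2 fold change -1.19). RB1, which is known to be lost in this line, went from 2.27 ± 0.311 to 1.32 ± 0.186 CPM (log2 fold change -0.77, adjusted p = 0.00265).

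Regulators of cell death rose on both sides. In the BCL2 family, death receptor and p53 target list, 16 of 28 measured genes rose and 7 fell (13 and 12 with scaling by library size). The pro-death genes BIK, BAK1 and PMAIP1 rose (log2 fold changes 2.01, 1.39 and 1.6004), and so did the protective BCL2L1 (1.404). BMF, a pro-death sensor, stood at 3.82, 5.55, 4.05 and 3.797 CPM in the control libraries and 0.455, 0.327, 0.442 and 0.239 CPM in the EGF 12 h libraries and fell 11.8-fold. The TRAIL receptor gene TNFRSF10A rose from 3.097 ± 0.442 to 12.997 ± 0.427 CPM and TNFRSF21 from 92.2 ± 5.898 to 343 ± 14.5 CPM. Of 7 p53 targets, CDKN1A and GADD45A rose and 3 fell. MDM2 had a log2 fold change of 0.013 (adjusted p = 0.905; -0.27 and lower with scaling by library size) and TP53I3, SESN1 and GADD45B were lower.

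PI3K and AKT are known to hold FOXO factors out of the nucleus. In the list of FOXO targets and PI3K feedback, 8 of 14 measured genes rose and 6 fell (median 0.53). Of its 6 FOXO target genes tested, 4 fell and 2 rose, and beyond 1.5-fold 2 fell and 2 rose. BCL6, a transcriptional repressor, stood at 47.4, 59.7, 49.6 and 55.7 CPM in the control libraries and 5.203, 4.63, 3.65 and 4.16 CPM in the EGF 12 h libraries. It fell 12.04-fold (log2 fold change -3.59 ± 0.2002, adjusted p = 2.18e-12). PIK3IP1, an inhibitor of PI3K, fell (log2 fold change -2.33). The insulin receptor substrates IRS1 and IRS2 rose from 2.97 ± 0.564 to 21.9 ± 0.919 CPM and 20.6 ± 1.46 to 77.1 ± 7.07 CPM, and TXNIP, with 1 count in the 8 libraries, was not tested.

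In the circadian clock, 7 of 19 measured genes rose and 11 fell (median -0.54). The output factors DBP, TEF, HLF and NFIL3 all fell, with TEF at 9.44, 12.2, 7.81 and 8.27 CPM in the control libraries and 2.58, 2.29, 1.82 and 2.82 CPM in the EGF 12 h libraries. PER2 stood at 10.2, 9.67, 7.21 and 6.92 CPM in the control libraries and 1.67, 1.85, 2.15 and 2.06 CPM in the EGF 12 h libraries. NPAS2, a paralogue of CLOCK, stood at 25.4, 29.5, 22.8 and 25.3 CPM in the control libraries and 237, 237, 228 and 234 CPM in the EGF 12 h libraries. NPAS2 rose 9.09-fold, while TEF and PER2 fell 3.96-fold and 4.399-fold.

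Developmental pathways held changes in both directions. In TGF-beta, BMP and ID genes, 14 of 29 measured genes rose and 9 fell, and the median of 0.14 was -0.14 with scaling by library size and -0.02 by upper quartiles (12 higher and 11 lower in both). INHBA, which encodes activin A, stood at 1.11, 0.673, 0.854 and 1.11 CPM in the control libraries and 37.1, 44.9, 37.4 and 45.9 CPM in the EGF 12 h libraries and rose 44.2-fold. TGFB1 rose from 12.3 ± 2.17 to 39.3 ± 3.75 CPM. The ID genes, inhibitors of basic helix-loop-helix factors, split: ID1 rose from 1.59 ± 0.2998 to 20.7 ± 1.36 CPM, and ID4 fell from 37.3 ± 7.25 to 6.49 ± 0.522 CPM, with ID2 and ID3 lower as well (log2 fold changes -0.85 and -1.34). SMAD4, known to be deleted in this line, had at most 4 counts in a library. In Notch and Wnt genes, 11 of 24 measured genes rose and 7 fell, with a median of 0.14 that was -0.14 and -0.02 under the same scalings (9 and 10, and 9 and 9). The Wnt target AXIN2 fell from 10.8 ± 1.11 to 1.73 ± 0.358 CPM, the Wnt antagonist DKK1 rose from 14.5 ± 1.77 to 89.7 ± 8.32 CPM, and the Notch ligand JAG1 rose from 27.5 ± 1.24 to 98.3 ± 2.74 CPM.

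Among the 12 largest rises that met the rule for named genes, not yet described are SPOCD1, with no control count and 6.36, 5.502, 5.14 and 5.36 CPM after 12 h (at least 164-fold higher), and SH2D1B, with no control count and 4.55, 5.502, 4.81 and 5.69 CPM (at least 151-fold). The unnamed transcript AL445363.3 had no control count and stood at 2.53, 2.61, 1.33 and 3.204 CPM. TACR1, the receptor for substance P, went from 2.41, 2.02, 1.79 and 1.78 CPM to 0, 0, 0 and 0.0478 CPM, a ratio of control to EGF 12 h of 154 (95% counting interval 27.2 to 6100.4). FMO6P, a pseudogene of flavin monooxygenases, went from 6.98, 5.84, 6.96 and 7.93 to 0.0505, 0.163, 0.0552 and 0.191 CPM and may share reads with its relatives. THRSP, a lipogenic nuclear protein, fell from 2.07 ± 0.175 to 0.0529 ± 0.0612 CPM, and TXLNB, SHROOM4 and CHRM1 fell (log2 fold changes -5.22, -5.08 and -4.87). SELENOP, a secreted selenium carrier, stood at 88.3, 66.7, 106 and 88.9 CPM in the control libraries and 3.33, 4.52, 4.03 and 3.49 CPM in the EGF 12 h libraries, with 36.1% of its exon bases overlapping a gene on the other strand. The histone gene H4C15 and the transcripts AP001636.3, LINC02541 and AC007906.2 had log2 fold changes of -4.41 to -4.73. By CPM, the largest losses beside CD24 and SCD were MGP, a matrix protein (3469.5 ± 374 to 1393 ± 14.3 CPM), HMGN2 (1306 ± 126 to 569 ± 23.1 CPM), PTMA (3968 ± 491 to 2670.3 ± 53.7 CPM), FTH1 and CASP14, and the largest gains beside actins, EGFR, CD44 and KRT18 were ANXA2 (1035 ± 102.2 to 5089 ± 53.4 CPM), S100A11 (1411 ± 163 to 3446 ± 122 CPM) and HSPA8.

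Kinds of gene differed in direction. Of 13365 protein-coding genes tested, 37.7% were higher and 34.0% lower, with a median of 0.03. Of 2403 lncRNA genes, 11.5% were higher and 51.5% lower, with a median of -0.76. Pseudogenes lay between, with 112 of 616 higher and 204 lower. Among zinc finger (ZNF) genes of chromosome 19, a large family of DNA-binding repressors, 138 of 235 fell and 29 rose (median -0.43; 183 and 8 with scaling by library size). ZNF737 stood at 13.8, 15.5, 21.4 and 20.1 CPM in the control libraries and 5.41, 4.79, 5.303 and 5.499 CPM in the EGF 12 h libraries. ZNF681 stood at 16.5, 20.1, 25.2 and 21.4 CPM in the control libraries and 6.26, 5.99, 5.7998 and 7.32 CPM in the EGF 12 h libraries. Both fell without overlap, 3.37-fold and 3.28-fold.

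Level and base composition moved with direction among protein-coding genes, as a description without a test. Of the 25% of genes with the lowest mean level, 23.3% were higher and 40.5% lower, and of the 25% with the highest 53.6% and 21.9%. Of the 25% with the lowest GC content of exons, 28.9% were higher and 42.0% lower, and of the 25% with the highest 44.3% and 22.6%. Among the 25% with the most exons, 43.5% were higher and 30.4% lower. The part of GC content, level and scaling in any list's result was not tested.

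How the 12 h values stood to the next time point was tested with EGF 24 h against EGF 12 h, which uses no control library but shares the 12 h libraries with all that precedes. Of the genes tested, 8879 (53.7%) differed, 4608 higher at 24 h and 4271 lower. The ribosome biogenesis genes were lower at 24 h in 50 of 54 cases and higher in 1, and the actin and focal adhesion genes were lower in 24 of 30 and higher in 2. The AP-1 genes were lower in 19 of 24 cases and higher in 1, and the NF-kB and cytokine genes were lower in 21 of 34 and higher in 2. In the mitosis list 28 of 54 were higher at 24 h and 6 lower, and in the clock list 12 of 19 were higher and 2 lower.

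CXCL8 stood at 41.6, 101.7, 99.2 and 157 CPM at 24 h, -2.76 on the log2 scale against 12 h (adjusted p = 9.86e-07). SOCS3 and F3 were also lower (-2.96 and -2.23). HMMR stood at 44.5, 36.8, 31.2 and 35.6 CPM, higher than at 12 h by 1.25 (adjusted p = 1.94e-08). VIM stood at 372, 382, 396 and 383 CPM, 0.91 above 12 h (adjusted p = 4.41e-10). FN1, PLAT and SERPINE2 were higher at 24 h as well (0.702, 1.19 and 1.097). For S100A11, SELENOP and FSCN1, 12 and 24 h were not told apart by the test, with differences of -0.090, 0.11 and -0.056.

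**Figure D4:**
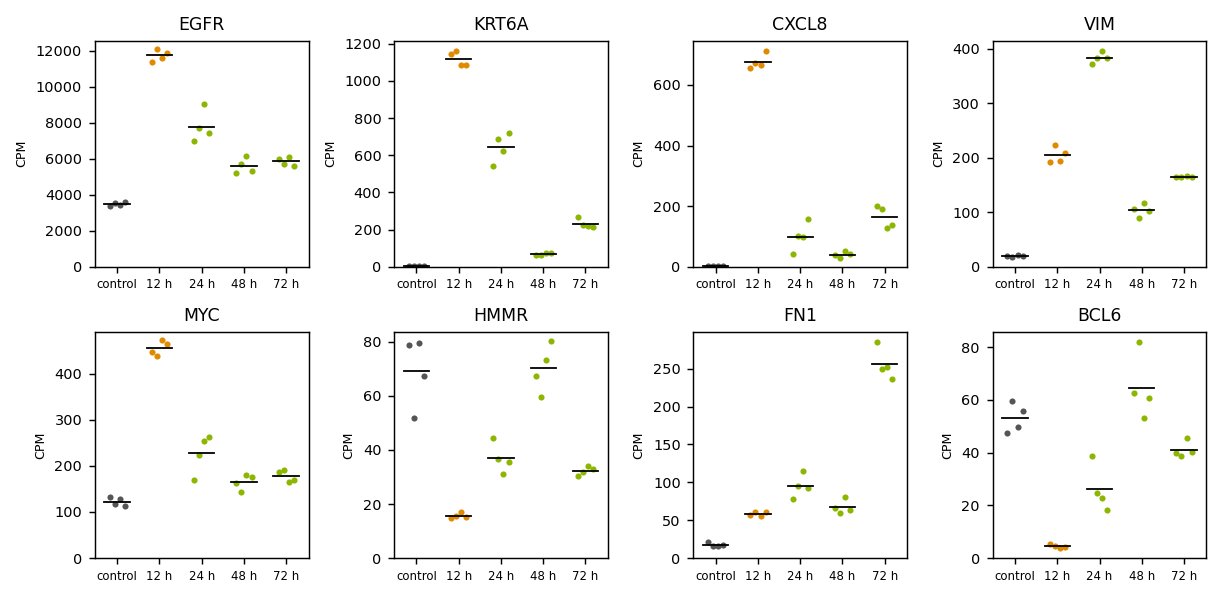
Expression in CPM (vertical axes, from 0) of 8 genes in every library of the 5 groups, with the mean of each group as a black line; control in grey, EGF 12 h in orange and later times in green. EGFR, KRT6A, CXCL8 and MYC are highest at 12 h, VIM at 24 h and FN1 at 72 h, and HMMR and BCL6 are lowest at 12 h.

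**Figure D5:**
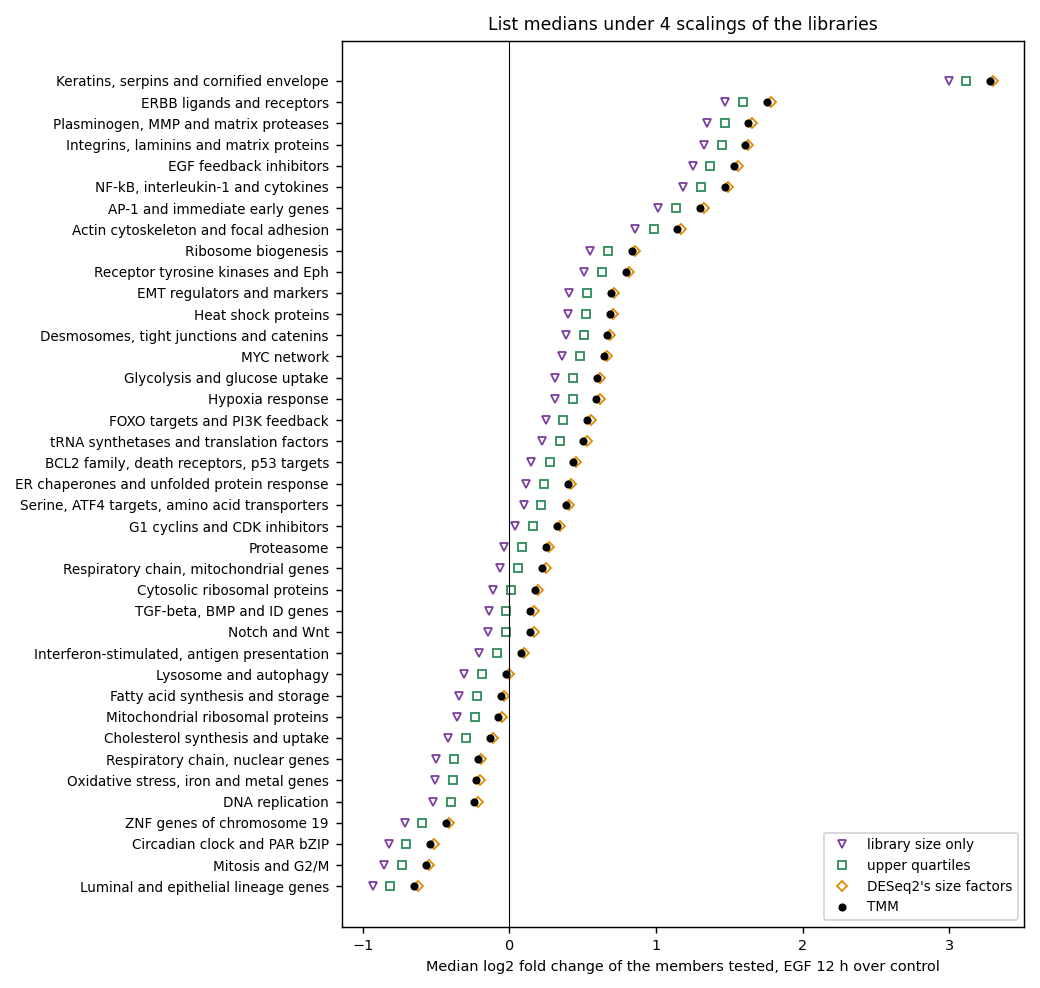
Median log2 fold change of the tested members of each of the 39 lists under 4 scalings of the libraries: TMM (black), DESeq2's size factors (orange), upper quartiles (green) and library size only (purple). All medians shift together; 6 lists with medians near 0 change sign under at least 1 of the other scalings (proteasome, mitochondrial genes, cytosolic ribosomal proteins, TGF-beta, Notch and Wnt, and interferon-stimulated genes).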

How the data were processed

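Reads of 20 mRNA libraries (5 groups of 4) were counted per gene. The authors deposited estimated counts rounded to whole numbers for 60271 genes, of which 33535 had at least 1 count in the 20 libraries. The submitters' processing notes name build hg38 and DESeq2; the aligner, the counter and its annotation, and the use of molecular identifiers are not given in the sources used here. The authors also deposited a normalized value per gene and library (a score, since its factors differ between genes and are not described), which was used in 1 alternative only, and their own fold changes and p-values, which were not used.

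Counts were fitted with edgeR 4.0.16 (R 4.3.3; limma 3.58.1) by the robust quasi-likelihood method after TMM normalization and the default filter on low counts, in 1 model of 5 group means over all 20 libraries, with EGF 12 h minus control as the contrast. Genes with a Benjamini-Hochberg adjusted p under 0.05 over 16522 genes were called. The standard error is the log2 fold change divided by the square root of the F statistic. Where a group held no count, a lower bound against 3 counts over the group is given, and where it held 1 to 3 counts, a ratio with an exact 95% interval, both of which cover counting error only. Positions are from GENCODE 29 (GRCh38), and promoters are from RefSeq (GRCh38.p14), matched for 11376 of the genes tested. Replicates were described as biological, and p-values set the difference between groups against the spread between these libraries. The libraries come from 1 cell line seeded and harvested together, so the p-values do not cover the spread between separate experiments. The variance between replicates was 4.76 to 62.9 times counting noise over 12 pairs, so no library was a repeat of another. The procedure was tested on simulated data of 16036 genes for this comparison. There, 77 of 97 genes changed 2-fold and 66 of 97 changed 1.5-fold were recovered, with 7 false calls. The comparison itself called 11465 genes, and the number of false calls with that many changed genes was not tested.

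The comparison, the gene lists and the tests were chosen with earlier results of these data known. Genes were named by rule: the 12 largest rises and falls in log2 fold change among called genes with a mean of at least 1 CPM and no overlap between groups, the 8 largest gains and losses in CPM, up to 4 called members per list with a mean of at least 5 CPM and the largest change, and 16 genes of the EGF response whatever their values. Other genes, most of them list members, were named after their values were seen. Genes given by the rule that are not reported here number 8. The alternatives were DESeq2 1.42.0, other scalings, filters and prior counts, a test against 1.5-fold, the 8 libraries alone, a replicate block and leaving out each library, and the factors per gene were added after seeing the data.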

Additional observations from a re-analysis of the deposited data

Results flagged for a closer look

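Within each group of 4 libraries, the gap of the highest or lowest library to its neighbour was set against the group's range (Dixon's test) for each named gene. Of 612 groups tested, 29 passed, where chance alone gives about 1 in 20 groups. By library, 6 of these were in EGF 12 h replicate 2, 5 in EGF 12 h replicate 1, 4 each in EGF 12 h replicates 3 and 4 and in control replicates 1 and 2, and 2 in control replicate 3. None of the differences from the control in these genes was tied to its stray value by a test.

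In the control, replicate 1 stood apart for AREG at 1.56 CPM, EZR at 103.9 CPM, MYLIP at 19.3 CPM and KLF5 at 97.2 CPM. Control replicate 2 stood apart for H4C15 at 4.75 CPM, AC007906.2 at 6.73 CPM, LPCAT3 at 87.5 CPM and BMF at 5.55 CPM. Control replicate 3 stood apart for ITGA6 at 134 CPM and MAX at 30.01 CPM.

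After 12 h of EGF, replicate 1 stood apart for ACTG1 at 7709 CPM, ELOVL7 at 34.4 CPM, PRLR at 50.1 CPM, ITGA6 at 487 CPM and RELB at 23.3 CPM. Replicate 2 stood apart for H4C15 at 1.04 CPM, MRPS2 at 114 CPM, CDC25C at 5.56 CPM, P4HA2 at 42.1 CPM, EGF at 1.31 CPM and RHOB at 16.02 CPM. Replicate 3 stood apart for LAMB3 at 74.5 CPM, SLC40A1 at 0.0552 CPM, ASNS at 107.8 CPM and DUSP7 at 57.7 CPM. Replicate 4 stood apart for TACR1 at 0.0478 CPM, SPRY2 at 134 CPM, SERPINB5 at 568 CPM and PMAIP1 at 34.4 CPM, and for TACR1 and SLC40A1 that value is the only count of the group.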

How the results depend on the processing

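The number of genes called stayed within 1.5 times of 11465 under all alternatives but the test against a 1.5-fold change, which called 5753 (2512 higher, 3241 lower). Leaving out 1 library gave 11075 to 11487. Scaling by library size called 3581 genes higher, and factors per gene, which could be had for 11956 genes, called 3491 lower and 4322 higher. Median log2 fold changes that changed sign were those of interferon and antigen presentation genes (-0.21 by library size, -0.0874 by upper quartiles), TGF-beta, BMP and ID genes (-0.14 and -0.0199), Notch and Wnt genes (-0.14 and -0.0225), cytosolic ribosomal proteins (-0.11 by library size), mitochondrial genes (-0.0645) and proteasome genes (-0.037). The median of lysosome and autophagy genes was 0.0017 with DESeq2, 0.0113 with no filter, 0.0142 without EGF 12 h replicate 3 and between that and -0.0726 when each library was left out in turn. The cause of these changes was not tested. The median of ERBB ligands and receptors was 0.72 with DESeq2, which tested 12 of its genes. Of the named genes, 2 that were called changed direction, CDC6 and EPCAM, both with scaling by library size and without a call there. Values of 13 genes that were not called changed sign. With scaling by library size the values were -0.18 for ASNS, -0.27 for ATF3, -0.19 for ATF5, -0.0456 for CDC6, -0.0422 for DDIT3, -0.0411 for EPCAM, -0.18 for GATA3, -0.17 for IVL, -0.11 for JUN, -0.27 for MDM2, -0.17 for TAGLN2 and -0.26 for TGM1, and ATF3, GATA3 and MDM2 were then called lower. By upper quartiles they were -0.0532 for ASNS, -0.15 for ATF3, -0.0678 for ATF5, -0.0579 for GATA3, -0.0523 for IVL, -0.15 for MDM2, -0.0515 for TAGLN2 and -0.14 for TGM1. With a minimum of 10 counts in all libraries they were -0.0231 for ATF3 and -0.0237 for MDM2, and with factors per gene -0.105 for MDM2, 0.0039 for MYH10 and 0.105 for TRIB3. TRIB3 was at 0.0078 with DESeq2, 0.0178 with no filter and 0.005 with DESeq2's size factors. Leaving out 1 library gave -0.0212 to 0.0568 for ATF3, -0.0389 to 0.18 for ATF5, -0.0721 to 0.11 for MDM2, -0.18 to 0.0061 for NFKBIA, -0.14 to 0.17 for TGM1 and -0.0728 to 0.0406 for TRIB3. Calls were lost in at least 1 alternative for BTC, CCNF, CDC6, CDH1, CLDN3, EEF1A1, EPCAM, FZR1, GADD45B, GAPDH, GRHL2, NDUFB5, RPL13, RPL36, RPS16, UBE2C and VHL, and gained for ATF3, DDIT3, DIMT1, GATA3, ITGAV, MDM2, MKI67, MYH10, NFKBIA, RHOB, SPRY1, TAGLN2 and TRIB3. Among single libraries, leaving out control replicate 1 lost EEF1A1 (adjusted p = 0.221), BTC (0.0935) and FZR1 (0.0615) and gained MKI67 (0.0499). Control replicate 2 lost CLDN3 (0.067) and gained DDIT3 (0.0334) and TAGLN2 (0.0252), control replicate 3 lost BTC (0.0732) and FZR1 (0.0965), and control replicate 4 lost FZR1 (0.0791) and GADD45B (0.074). EGF 12 h replicate 1 lost EEF1A1 (0.0607), BTC (0.0568), FZR1 (0.0662) and GADD45B (0.0576), replicate 2 lost EEF1A1 (0.0746), BTC (0.131), CCNF (0.0559) and FZR1 (0.0789), and replicate 4 lost EEF1A1 (0.0565), FZR1 (0.0506) and GADD45B (0.0527). Same-numbered libraries did not deviate together (r = 0.00, 0.05, 0.24 and -0.11 for replicates 1 to 4), so the numbers do not pair them, and a replicate block called 11577 genes (5512 higher, 6065 lower; 7687 beyond 1.5-fold).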
